A study of Mus musculus with 2 samples.

Results

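Osteoclast-type RANK target genes are 9 genes named together for what osteoclasts, the bone-resorbing cells of the macrophage lineage, make under the receptor RANK: Siglec15, Hk3, Acp5, Ctsk, Nfatc1, Calcr, Atp6v0d2, Ocstamp and Dcstamp. They were picked by symbol, and all 9 of 9 had a row among the 23997 genes of the deposited table. Part of the reason for picking them was that Siglec15 and Hk3 have some of the highest ratios of the comparison, so the ratios of the members are given as a description and support nothing. The study sequenced mRNA of MHC-II high medullary thymic epithelial cells (mTECs), which were sorted by flow cytometry from pools of C57BL/6 mice. Wild-type mice (WT) gave 1 library and mice of genotype Aire-/- (Aire-KO) gave 1. How many mice were pooled, how old they were, their sex and which Aire allele was used are not given. Without replicates, every difference compares the 2 libraries and not the genotypes. In bulk RNA, fewer cells of a type and less RNA per cell cannot be told apart.

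RANK is a receptor of the TNF receptor family, its ligand is RANKL, and osteoprotegerin is a soluble decoy that binds RANKL. In osteoclast precursors, RANK signals through TRAF6 and NF-kappaB, together with receptors that use the ITAM adaptors DAP12 and FcRgamma, and this raises NFATc1, the transcription factor that switches on the genes for acid secretion, matrix digestion and cell fusion. In the thymus, RANKL from lymphoid cells acts on RANK of mTECs and drives their maturation to the MHC class II high state in which Aire is made.

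Levels are given as FPKM, a fragment count corrected for transcript length and for library depth. The FPKM of all genes summed to 523609 (WT) and 551619 (Aire-KO), and the smallest steps between low values implied about 47500000 and 54200000 fragments. Every pair of values below has WT first and Aire-KO second, and a gene named higher or lower is so in the library labelled Aire-KO. A gene was called at a 2-fold difference of FPKM + 0.1 where its mean reached 0.5 FPKM, which ranks sizes and tests nothing. Of 15906 such genes, 7.09% were higher and 20.5% lower, with a median log2 ratio of 0.05. These shares are the background for every count of a gene list below. Transcripts of mTEC markers were abundant in both libraries, and none of 12 was higher or lower (Cldn4 became lower with median-ratio scaling). They included H2-Aa (8398 and 11948 FPKM), H2-Ab1 (7283 and 10067 FPKM) and the keratin gene Krt18 (1679 and 1990.0 FPKM). Aire transcript was at 221 and 640.2 FPKM. A gene-level FPKM does not isolate a deleted part, so the transcript does not check the label.

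The 9 members did not share a direction. Siglec15 and Hk3 were higher, Acp5, Calcr and Atp6v0d2 lower, Ctsk and Nfatc1 neither, and Ocstamp and Dcstamp stayed under the minimum of 0.5 FPKM. That is 2 higher and 3 lower of 7, against 7.09% and 20.5% of all genes (27.6% in either direction), from which nothing is read because the choice of members used this comparison. The 7 that passed the minimum are not all members. The pair that did not, Ocstamp and Dcstamp, had values in the library labelled WT and were listed at 0 in the other library. Siglec15 and Hk3 were picked partly for their high ratios. The opposite directions within the set are therefore a description and no result about RANK target genes.

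**Figure D1:**
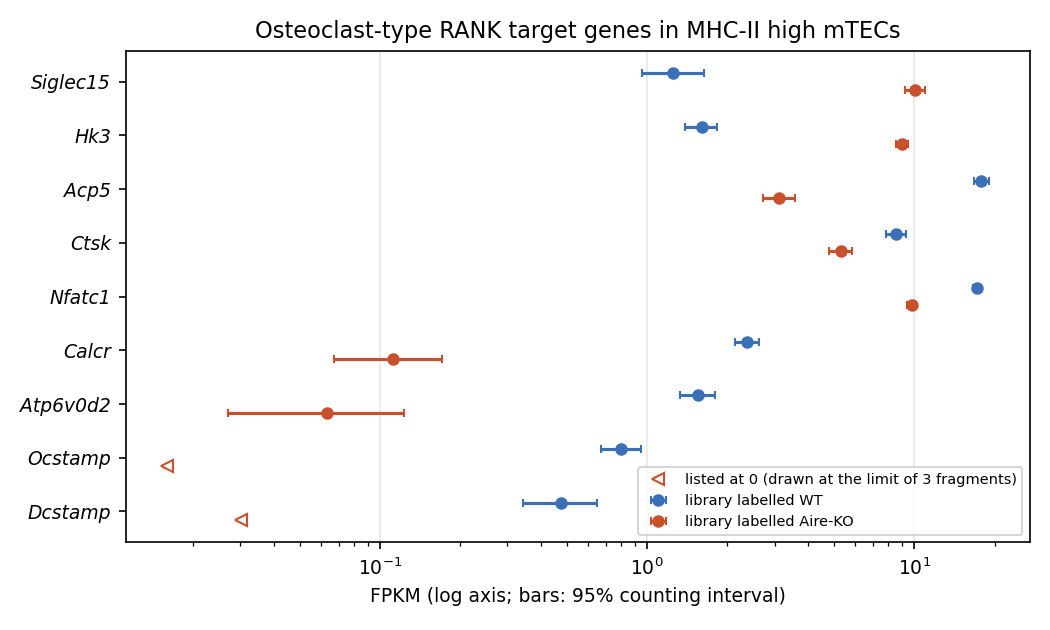
FPKM of the 9 members on a log axis, with blue points for the library labelled WT, red points for the library labelled Aire-KO and bars for the 95% counting interval. Open triangles mark genes listed at 0, drawn at the limit that 3 fragments set. Siglec15 and Hk3 are the members whose red point lies to the right of the blue point.

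Siglec15 encodes a sialic acid-binding receptor of the osteoclast surface that pairs with the adaptor DAP12. The gene lies on chromosome 18 (78042493 to 78057441, build GRCm38.p6, the same assembly as mm10). Its level was 1.25 FPKM in WT and 10.1 FPKM in Aire-KO, or 8.03 times as high. These values rested on about 58 and 538 fragments. On the log2 scale, the 95% interval of the ratio of FPKM ran from 2.60 to 3.41, and it covers counting error only, as do all intervals here. Siglec15 thus went from the 29.2nd to the 62.5th percentile of all genes with a value. It has 1 isoform in the table, so no split of reads between isoforms enters its level.

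Hk3 encodes hexokinase 3, which phosphorylates glucose at the first step of glycolysis and is best known from myeloid cells. The gene lies on the minus strand of chromosome 13 (55005985 to 55021475). It stood at 1.60 and 9.04 FPKM, 5.66 times as high in the library labelled Aire-KO, from about 221 and 1447 fragments. The log2 ratio of FPKM was 2.50 (2.30 to 2.71). Among 15906 genes, Siglec15 ranked 36 and Hk3 54 from the highest ratio, counted on the scale of FPKM + 0.1. Hk3 overlaps its neighbour Unc5a, which lies on the plus strand, by 34 bp at their 3′ ends. Unc5a was at 3.95 and 5.89 FPKM, and whether the counting used strand is not given in the sources used here.

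**Figure D2:**
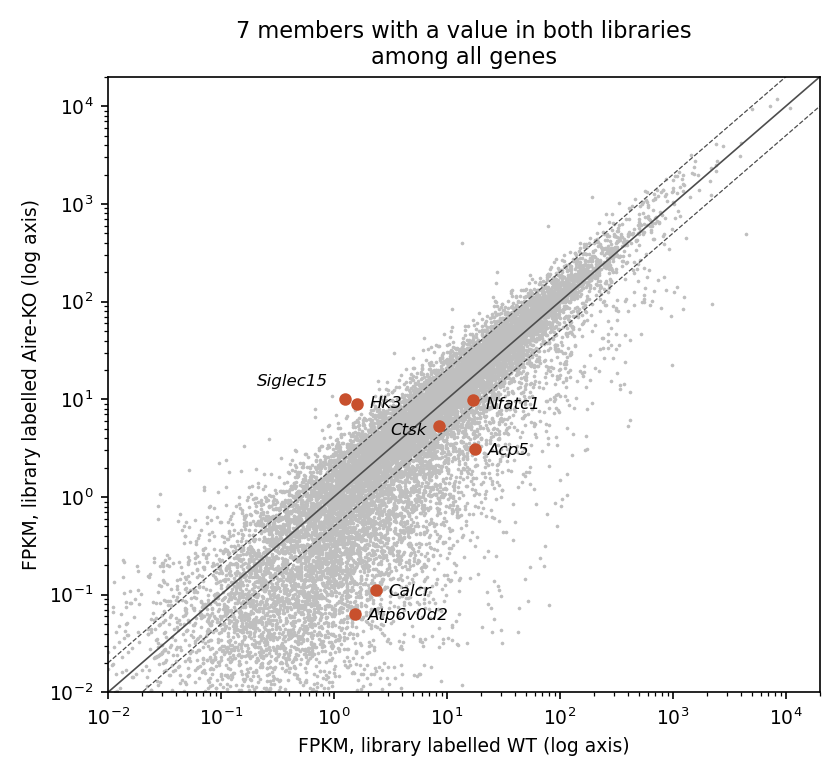
FPKM of every gene with a value in both libraries (grey), the library labelled WT on the x axis and the library labelled Aire-KO on the y axis, both log axes that start at 0.01. The solid line marks equal values and the dashed lines 2-fold. Siglec15 and Hk3 lie above the upper dashed line, Nfatc1 and Ctsk between the lines, and Acp5, Calcr and Atp6v0d2 below the lower one.

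The Hk3 level came from several isoforms. NM_001033245 was at 0.665 and 4.75 FPKM. NM_001206390 was at 0.931 and 3.62 FPKM. Both were thus more abundant in the library labelled Aire-KO. NM_001206392 was listed at 0 in the library labelled WT and stood at 0.673 FPKM in the other, and NM_001206391 was listed at 0 in both. The share of NM_001033245 was 41.7% and then 52.5% of the gene, and that of NM_001206390 was 58.3% and then 40.0%. How exactly Cuffdiff divides fragments among isoforms that share exons was not measured, so these shares have no interval.

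Nfatc1, the transcription factor that leads osteoclast differentiation, was at 17.2 and 9.78 FPKM (chromosome 18, 80606205 to 80713071). Its level in the library labelled Aire-KO was 56.8% of that in the library labelled WT, a log2 ratio of FPKM of -0.82 (-0.89 to -0.74) from about 3528 and 2302 fragments. That difference is larger than counting error and under the 2-fold rule. The most abundant of its 6 isoforms, NM_016791, stood at 8.02 and 3.88 FPKM. NM_001164111 made up 23.3% and 21.3% of the gene, and NM_001164112 was at 2.65 and 2.42 FPKM. All 6 isoforms had the smaller value in the library labelled Aire-KO. The largest change of share was that of NM_001164112, which made up 15.4% and 24.8% of the gene. An antisense transcript in GENCODE M21, AC123818.1, overlaps Nfatc1 by 2571 bp and has no row in the table under that name.

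**Figure D3:**
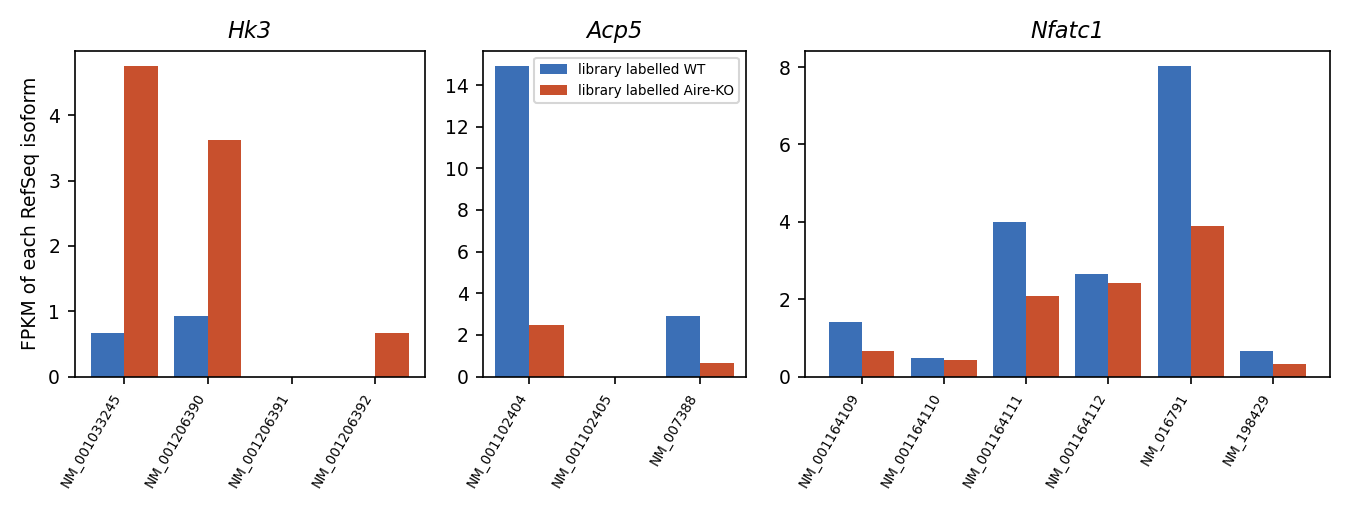
FPKM of each RefSeq isoform of Hk3, Acp5 and Nfatc1, as blue bars for the library labelled WT and red bars for the library labelled Aire-KO, with a separate linear axis from 0 for each gene. Every isoform of Hk3 with a value has the taller red bar, and every isoform of Acp5 and Nfatc1 with a value has the taller blue bar.

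Acp5 encodes tartrate-resistant acid phosphatase, the enzyme stained to identify osteoclasts. It stood at 17.8 and 3.13 FPKM, 5.69 times as high in the library labelled WT (chromosome 9, 22126727 to 22135746, minus strand). The log2 ratio of FPKM was -2.51 (-2.74 to -2.29), from about 986 and 201 fragments. Its 3 isoforms begin at different places, so the table also shows from which start the transcripts were assigned. NM_001102404 was at 14.9 and 2.49 FPKM, 83.6% and 79.6% of the gene. NM_007388 was at 2.92 and 0.638 FPKM, 16.4% and 20.4%. NM_001102405, which has the most upstream start, was listed at 0 in both libraries. The order of the assigned levels was therefore the same in the 2 libraries, while each level with a value was smaller in the library labelled Aire-KO. As for Hk3, how exactly fragments were divided among these isoforms was not measured. GENCODE M21 places another transcript, 6530413G14Rik, on the opposite strand over 8985 bp of Acp5, and the table has no row for it under that name.

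Ctsk encodes cathepsin K, the protease that digests bone collagen (chromosome 3, 95499210 to 95509387). It was at 8.56 and 5.30 FPKM, a log2 ratio of FPKM of -0.69 (-0.88 to -0.50), which lies beyond counting error and is under the 2-fold rule. Its neighbour Ctss, the cathepsin gene of antigen processing in MHC class II cells, lies 17399 bp further along and stood at 227 and 380.2 FPKM. Of 9 other cysteine cathepsins none passed 2-fold, with log2 ratios from -0.70 to 0.90 and a median of -0.03, against 0.05 for all genes. Among them were Ctsh at 290.4 and 544 FPKM and Ctsz at 393 and 414 FPKM.

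The start regions of these genes are shown because Acp5 has 3 of them, whose isoforms were assigned unequal levels. The other members with a region at hand can be set beside it. They come from RefSeq on build GRCm38.p6, run from 250 bases before the start to 50 bases after it, and are written 5′ to 3′ on the strand of the gene. Such regions were used for 4 of the 9 members, Hk3, Acp5, Ctsk and Calcr. Capitals mark matches, on either strand, to letters known from osteoclast regulators: GGAAAA for NFAT, TGANTCA for AP-1, GAGGAAGT for PU.1, GGGANTTTC for NF-kappaB and TCANNTGA for MITF.
Hk3, chr13:55021336-55021635, minus strand: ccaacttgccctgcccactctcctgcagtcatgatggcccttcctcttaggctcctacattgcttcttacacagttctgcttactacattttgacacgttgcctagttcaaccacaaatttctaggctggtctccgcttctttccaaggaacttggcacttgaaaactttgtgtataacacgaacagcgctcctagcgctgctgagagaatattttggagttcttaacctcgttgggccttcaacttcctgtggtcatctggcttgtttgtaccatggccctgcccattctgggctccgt
Acp5, start of NM_001102404, chr9:22131816-22132115, minus strand: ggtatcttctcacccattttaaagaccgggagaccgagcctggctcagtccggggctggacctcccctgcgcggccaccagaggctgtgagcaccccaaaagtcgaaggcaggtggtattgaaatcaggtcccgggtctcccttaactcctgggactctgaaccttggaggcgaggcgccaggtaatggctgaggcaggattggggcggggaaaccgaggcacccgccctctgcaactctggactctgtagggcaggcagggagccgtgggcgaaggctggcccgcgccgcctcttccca
Acp5, start of NM_007388, chr9:22130549-22130848, minus strand: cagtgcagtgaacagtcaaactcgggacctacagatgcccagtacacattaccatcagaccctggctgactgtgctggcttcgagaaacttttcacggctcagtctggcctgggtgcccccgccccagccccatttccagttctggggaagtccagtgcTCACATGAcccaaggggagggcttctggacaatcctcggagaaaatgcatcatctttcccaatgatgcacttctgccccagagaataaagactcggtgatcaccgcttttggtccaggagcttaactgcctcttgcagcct
Acp5, start of NM_001102405, chr9:22135697-22135996, minus strand: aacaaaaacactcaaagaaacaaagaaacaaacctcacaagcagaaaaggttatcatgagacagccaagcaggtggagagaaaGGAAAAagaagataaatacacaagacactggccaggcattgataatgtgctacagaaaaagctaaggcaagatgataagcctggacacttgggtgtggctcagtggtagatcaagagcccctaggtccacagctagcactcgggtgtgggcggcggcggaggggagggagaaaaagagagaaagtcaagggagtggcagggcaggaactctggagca
Ctsk, chr3:95498960-95499259, plus strand: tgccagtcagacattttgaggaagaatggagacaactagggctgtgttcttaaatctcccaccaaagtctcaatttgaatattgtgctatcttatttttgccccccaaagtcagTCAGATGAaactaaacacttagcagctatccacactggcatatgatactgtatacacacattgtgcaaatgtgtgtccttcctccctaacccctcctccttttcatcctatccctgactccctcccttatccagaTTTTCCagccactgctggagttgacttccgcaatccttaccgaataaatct
Calcr, start of NM_001042725, chr6:3763574-3763873, minus strand: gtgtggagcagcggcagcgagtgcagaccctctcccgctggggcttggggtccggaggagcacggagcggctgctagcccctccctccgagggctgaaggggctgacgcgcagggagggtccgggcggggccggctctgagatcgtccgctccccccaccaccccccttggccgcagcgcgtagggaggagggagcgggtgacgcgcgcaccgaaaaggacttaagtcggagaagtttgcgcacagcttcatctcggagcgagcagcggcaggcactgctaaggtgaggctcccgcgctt

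Few of these letters occur in the regions. The Hk3 region was matched to the start of NM_001033245 only. No region was matched to its other isoforms, among them NM_001206390 (58.3% of the gene in WT and 40.0% in Aire-KO). This Hk3 region and that of the Acp5 start with the highest assigned level hold none of the 5 sets of letters. Neither do those at the 2 Calcr starts. The start of NM_007388 of Acp5 holds TCACATGA, whose first base is at position -91 from the start. The start of NM_001102405, an isoform listed at 0 in both libraries, holds GGAAAA at position -167. Ctsk holds TCAGATGA at position -136 and the reverse complement TTTTCC at position -1. Among 32817 RefSeq regions of the same length outside chromosome 18, 23.3% hold GGAAAA and 8.40% TCANNTGA, so matches of this kind are common. The letters of AP-1 occur in 7.81%, of PU.1 in 3.20% and of NF-kappaB in 1.11%. Regions on chromosome 18 were left out, and with them any of Siglec15 and Nfatc1. Whether the start regions of these members hold such letters was therefore not examined. A match is a description of letters and not a bound site.

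Calcr, the calcitonin receptor, through which calcitonin halts bone resorption, was at 2.37 and 0.112 FPKM (chromosome 6, 3685678 to 3764713). This is 21.2 times as high in the library labelled WT, a log2 ratio of FPKM of -4.40 (-5.15 to -3.78), and the value in the library labelled Aire-KO rested on about 20 fragments. Nearly all of what remained in Aire-KO was NM_001042725, which had been 89.0% of the gene in WT. The miRNA genes Mir489 and Mir653 lie within Calcr on the same strand. Genes around this receptor went in both directions. Of 6 relatives and ligands, 2 were higher and 2 lower (median -0.14). Calcrl, the receptor that with RAMP proteins binds CGRP and adrenomedullin, was at 10.8 and 43.9 FPKM, and Calcb, a CGRP gene, at 239 and 516 FPKM. The RAMP genes Ramp2 (6.33 and 0.762 FPKM) and Ramp1 (3.17 and 0.546 FPKM) were lower, while Calca, which encodes calcitonin and CGRP, stood at 161 and 97.7 FPKM and Ramp3 at 14.0 and 18.9 FPKM. With median-ratio scaling Calcb was no longer higher (log2 0.94).

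Atp6v0d2 encodes the d2 subunit of the membrane part of the V-ATPase, the proton pump of the osteoclast, and is needed for fusion of osteoclast precursors. It was at 1.55 and 0.0633 FPKM (chromosome 4, 19876838 to 19922566), the latter from about 8 fragments. The log2 ratio of FPKM was -4.61 (-5.87 to -3.63). The ubiquitous d1 subunit gene Atp6v0d1 was at 113 and 111 FPKM, so the d2 subunit stood far below d1 per length in both libraries. Of 23 other V-ATPase genes, 4 were lower and none higher (median -0.21). The 4 were Atp6v0e2 (29.5 and 13.9 FPKM), Atp6v1c2 (9.88 and 1.20 FPKM), Atp6v1b1 (3.87 and 0.147 FPKM) and Atp6v1g3 (2.18 and 0.709 FPKM). Against this count stand the 20.5% of all genes that were lower. The most expressed subunit genes that were neither were Atp6v0e (483 and 432 FPKM), Atp6v1f (245 and 234 FPKM) and Atp6v0b (186 and 231 FPKM).

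Ocstamp and Dcstamp encode related multipass membrane proteins that osteoclast precursors need to fuse into cells with many nuclei. Ocstamp (chromosome 2, 165395450 to 165400394) reached 0.799 FPKM in WT, from about 132 fragments, and was listed at 0 in Aire-KO. Dcstamp (chromosome 15, 39745930 to 39760938) was at 0.477 FPKM, from about 41 fragments, and was also listed at 0. No fold is given against a listed 0. If these are measured zeros, 3 fragments would allow up to 0.0159 FPKM of Ocstamp and 0.0303 FPKM of Dcstamp. Of 3278 genes whose WT level lay between 0.5 and 2 times that of Ocstamp, 340 (10.4%) were listed at 0 in the other library. These genes were matched on FPKM and not on fragments, and shorter transcripts rest on fewer fragments at the same FPKM. How often a gene with about 132 fragments is listed at 0 in the other library was not measured. Of 10 other cell fusion genes at or above the minimum, 1 was higher, the metalloprotease gene Adam12 (2.30 and 6.93 FPKM), and 1 lower, the CD47 receptor gene Sirpa (10.6 and 2.79 FPKM), with a median of -0.00. The tetraspanin gene Cd9 was at 344 and 293 FPKM.

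The order of levels differed between the libraries. In the library labelled WT it ran Acp5, Nfatc1, Ctsk, Calcr, Hk3, Atp6v0d2, Siglec15, Ocstamp and Dcstamp. Acp5 and Nfatc1 did not differ beyond counting error (log2 0.05, -0.05 to 0.15), nor did Hk3 and Atp6v0d2 (0.04, -0.25 to 0.33) or Atp6v0d2 and Siglec15 (0.30, -0.14 to 0.75). In the library labelled Aire-KO it ran Siglec15, Nfatc1, Hk3, Ctsk, Acp5, Calcr and Atp6v0d2. There Siglec15 and Nfatc1 did not differ beyond counting error (0.04, -0.10 to 0.18), nor did Calcr and Atp6v0d2 (0.82, -0.42 to 2.22). Hk3 and Atp6v0d2 were thus alike in the library labelled WT and far apart in the other. Over the 2 libraries, the gene nearest to Siglec15 among 11434 protein-coding genes whose mean reached 2 FPKM was Hk3, at a distance of 0.36 on the log2 scale. Next were Mybpc1 (1.54 and 7.76 FPKM, 0.46) and Ackr2 (1.31 and 6.76 FPKM, 0.57). Those nearest to Hk3 were Mybpc1 (0.22), Tmem52 (1.72 and 7.15 FPKM, 0.35) and Siglec15. With 2 values per gene this likeness says only that the levels were close.

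The receptor side of the pathway was present in both libraries. Tnfrsf11a, which encodes RANK, was at 25.3 and 47.0 FPKM, a log2 ratio of FPKM of 0.89 (0.85 to 0.94), under the 2-fold rule. Tnfrsf11b, the osteoprotegerin gene, was at 62.7 and 108 FPKM, also neither. Tnfsf11, the RANKL gene, was low and lower, at 0.989 and 0.223 FPKM. Of 12 genes of ligand, receptor and adaptors 2 were lower and none higher (median 0.36), the other lower gene being Traf5 (5.33 and 2.59 FPKM). The adaptor genes Traf1 (54.4 and 61.6 FPKM) and Traf2 (48.6 and 59.6 FPKM) were neither. Traf6, the adaptor of osteoclast RANK signalling, named after its values were seen, had 18.8 and 36.9 FPKM, with a log2 ratio of 0.97. Of 12 NF-kappaB and AP-1 subunits 2 were lower, Fosl2 (29.2 and 14.0 FPKM) and Fosl1 (log2 ratio -1.95, with 2.52 FPKM in Aire-KO), and none higher (median 0.01). Fos, the AP-1 subunit that osteoclasts need, was at 749 and 631 FPKM.

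In the ITAM arm some genes were lower and others were neither. Tyrobp, which encodes the Siglec15 partner DAP12, was at 20.2 and 3.35 FPKM, a log2 ratio of FPKM of -2.59 (-2.97 to -2.22). Siglec15 and the gene of its adaptor therefore differed in opposite directions. Trem2, another receptor that uses DAP12, was at 9.31 and 1.20 FPKM, and Lcp2 (4.37 and 1.05 FPKM) and Btk (1.03 and 0.320 FPKM), which act downstream, were also lower. These were the 4 lower genes of 12, with none higher (median -0.57), beside 20.5% lower among all genes. Fcer1g, which encodes FcRgamma, stood at 60.2 and 87.2 FPKM, the adaptor gene Blnk at 87.8 and 145 FPKM and the kinase gene Tec at 36.2 and 44.6 FPKM.

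Regulators of NFATc1 were called about as often as all genes. Of 12 calcineurin and NFAT genes 1 was higher and 2 lower (median 0.29), beside 7.09% and 20.5% of all genes. Ppp3ca, a catalytic subunit of calcineurin, the phosphatase that activates NFAT, was at 14.1 and 28.7 FPKM. It was no longer higher with median-ratio scaling (log2 0.84) or with values scaled to the same sum (0.94). Ppp3cc (5.80 and 1.92 FPKM) and the calcineurin inhibitor gene Rcan2 (1.52 and 0.265 FPKM) were lower. The NFAT-responsive inhibitor gene Rcan1, at 42.8 and 21.9 FPKM, had a log2 ratio of -0.96 that passed 2-fold under both scalings (-1.13 and -1.04). Ppp3r1 was at 56.2 and 85.5 FPKM.

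Of 6 other osteoclast transcription factors, Spi1, the PU.1 gene, was lower (8.29 and 0.682 FPKM), as was Prdm1 (4.64 and 1.99 FPKM), and Bhlhe40 was higher (41.7 and 88.1 FPKM), with a median of -0.45. Mitf, a regulator shared with melanocytes, was at 0.831 and 0.493 FPKM. Among repressors of osteoclast differentiation, Irf8 was higher (147 and 328 FPKM). Lower were Id3 (157 and 58.6 FPKM), Id2 (76.9 and 37.9 FPKM) and Id1 (32.0 and 14.8 FPKM). With median-ratio scaling Bhlhe40 (0.91) and Irf8 (0.99) were no longer higher. With the values as deposited, repressor genes and activator genes were found in each direction. Among the genes named here, that did not hold with median-ratio scaling.

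Of 16 bone resorption genes outside the members, 3 were lower and 1 higher (median -0.17). Among all genes 20.5% were lower and 7.09% higher. The counts are near those shares, so nothing is read from them. Car2, the carbonic anhydrase gene that supplies protons to the pump, was at 22.2 and 2.77 FPKM, the creatine kinase gene Ckb at 34.3 and 13.2 FPKM and Rab38 at 8.69 and 1.35 FPKM. Snx10, a sorting nexin gene needed for osteoclast resorption, was higher at 48.3 and 110.3 FPKM. Src, the kinase gene of the ruffled border, was at 42.2 and 73.9 FPKM, the protease gene Mmp14 at 48.9 and 69.8 FPKM and Rab7 at 53.9 and 73.8 FPKM.

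None of the relatives of Siglec15, Hk3 and Acp5 named here was higher. Among all genes 7.09% were higher and 20.5% lower. With so few relatives, nothing is read from the absence of a higher one. Of 6 other Siglec genes 4 were lower (median -1.33): Mag (6.78 and 3.03 FPKM), Siglec5 (1.73 and 0.150 FPKM), Siglecg (0.882 and 0.239 FPKM) and Cd33 (0.984 and 0.0398 FPKM). Siglece (4.15 and 2.08 FPKM) and Siglec1 (1.36 and 0.730 FPKM) were neither. Among hexokinase genes Hkdc1 (2.87 and 0.173 FPKM) was lower, while Hk1 (32.0 and 21.6 FPKM) and Hk2 (5.69 and 9.70 FPKM) were neither. Hk3 was therefore below Hk1, Hk2 and Hkdc1 in WT, and in Aire-KO it was above Hkdc1 and below Hk1 and Hk2. Of 6 other acid phosphatase genes Acpp (43.5 and 15.2 FPKM) and Acpt (2.05 and 0.0499 FPKM) were lower, and none was higher (median -0.05).

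**Figure D4:**
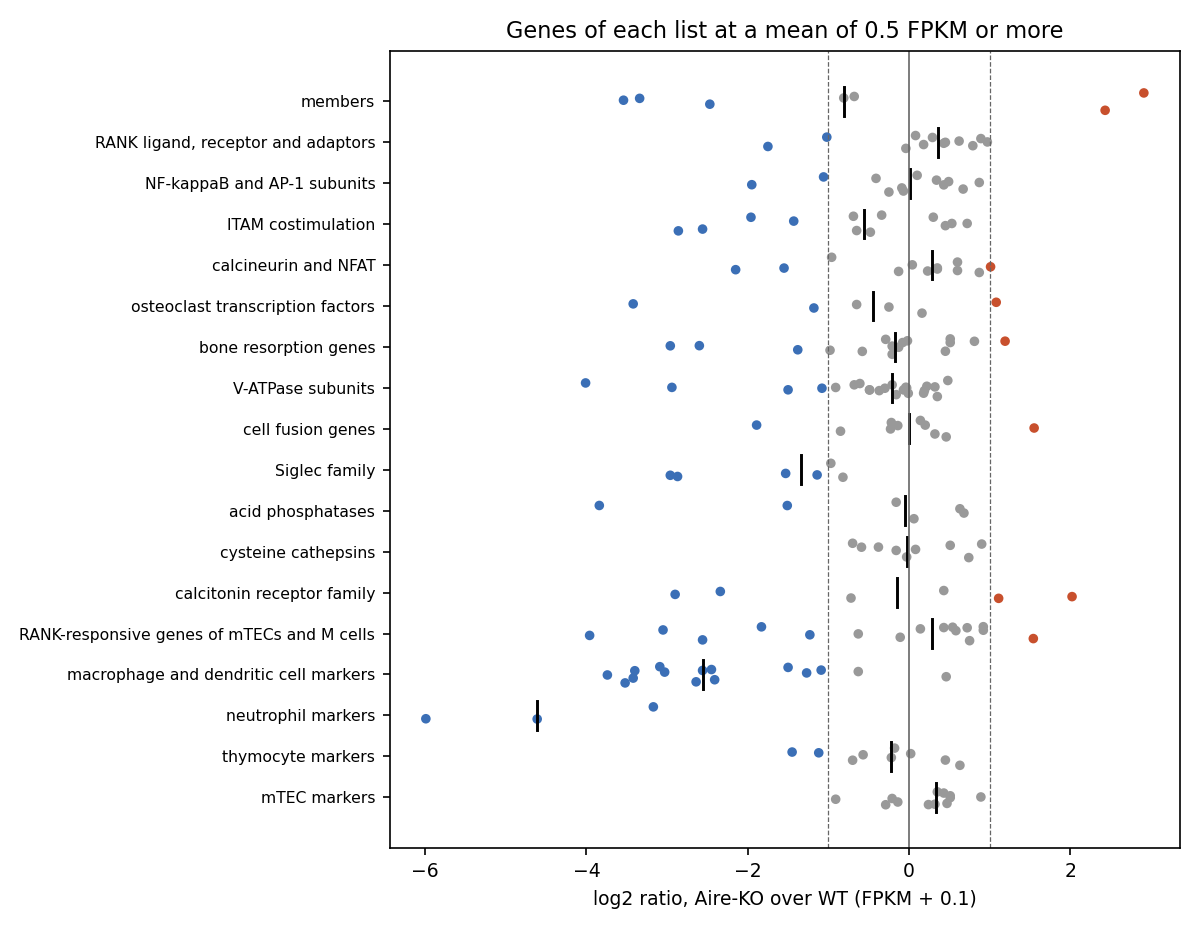
Log2 ratio of FPKM + 0.1, the library labelled Aire-KO over the library labelled WT, for each gene that reached the mean of 0.5 FPKM, with 1 line for each gene list whose counts are given and a black bar at the median of the list. Red points are higher, blue points lower and grey points neither by the 2-fold rule (dashed lines). In the members' line, 2 red and 3 blue points lie apart from the grey pair, and the macrophage and dendritic cell line is blue for 13 of 15 points.

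Of 16 other genes that RANK raises in mTECs and in gut microfold cells, 5 were lower and 1 higher, with a median of 0.28. Among all genes 20.5% were lower and 7.09% higher. The higher one was Aire, the targeted gene itself, so outside it none was higher. Lower were Gp2 (375 and 24.0 FPKM), Ccl20 (376 and 45.3 FPKM), Ccl9 (94.9 and 16.1 FPKM), Tnfaip3 (55.2 and 23.5 FPKM) and Sox8. Nfkbia (1238 and 1364 FPKM), Marcksl1 (732 and 676 FPKM) and Spib (181 and 263 FPKM) were neither.

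Markers of the macrophage lineage, from which osteoclasts arise, were lower too. Of 15 macrophage and dendritic cell markers at or above the minimum 13 were lower and none higher, with a median of -2.56. Summed over all 21 listed, their level was 909 and 503 FPKM, and 234 and 66.8 FPKM without the lysozyme gene Lyz2. Csf1r, the receptor that macrophages and osteoclast precursors need, was at 6.77 and 2.75 FPKM. Other lower markers were Cd14 (59.9 and 5.57 FPKM) and the complement gene C1qb (35.3 and 6.56 FPKM), while Lyz2 (676 and 436 FPKM) and Cd68 (24.1 and 33.1 FPKM) were neither. The only one of these markers listed at 0 was Fcgr1, in Aire-KO. Which cells made the marker transcripts was not tested. The part of macrophage-lineage cells in the lower levels of Acp5, Calcr, Atp6v0d2, Ocstamp and Dcstamp was not tested. Siglec15 and Hk3 were higher in the library in which these markers were lower, and the part of such cells in their levels was not tested either. Neutrophil markers were lower in 3 of 3 (S100a8 at 781 and 87.0 FPKM), and thymocyte markers in 2 of 9 (median -0.22).

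Position along the chromosome gave a further view, chosen after values had been seen. The nearest protein-coding gene with a row in the table was taken on each side of every member. Of 18 neighbours 15 reached the minimum, of which 3 were lower and none higher, against 20.5% lower among all genes. Slc13a3, 4901 bp from Ocstamp, was at 2.11 and 0.0966 FPKM, and Dpys, 7547 bp from Dcstamp, at 1.03 and 0.0380 FPKM. The third was Hepacam2, 187356 bp from Calcr, at 39.2 and 8.03 FPKM. Next to Siglec15, Epg5 (4.60 and 4.28 FPKM) and Slc14a1 (0.833 and 1.55 FPKM) were neither. Next to Hk3, Unc5a and Uimc1 (12.3 and 17.9 FPKM) were also neither, so the levels around the higher members did not share their size of difference.

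By the authors' own q-values, 70 of 23997 genes were under 0.05, and none of the 9 members was among them. So few genes passed that a set of 9 without any is no result about these members. The authors' deposited table gave the smallest q of the members to Dcstamp (0.125) and Ocstamp (0.130), and q of 0.586 to Siglec15 and 0.858 to Hk3. Those values come from 2 libraries and do not measure spread between mice.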

How the data were processed

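RNA of 1 library labelled WT and 1 labelled Aire-KO was analysed from the gene and isoform tables. Per the labels' protocols, MHC-II high mTECs were sorted from pooled mice, Trizol was used for the RNA, and the kit for mRNA libraries keeps strand. TopHat2, Cuffdiff and build mm10 are named in the submitters' processing notes. The deposited FPKM values are the authors', and their scaling between libraries, annotation release and strand setting are not stated. The p-value and q-value columns are the authors' own and were only quoted. The members and gene lists were chosen with earlier results of these data known.

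Rows with status HIDATA (5), where the authors' tool gave no estimate, were treated as missing, a choice made after seeing the data. Ratios are log2 of FPKM + 0.1. Fragments were estimated from the steps between low values of 9392 transcripts of 2000 bp or more, with lengths from GENCODE M21 through its RefSeq links. The fit took 190 and 170 bp off each length, and 77.8% and 78.7% of low values lay within 0.1 of a whole number. Those shares come from the values that set the step and are no check of it. For Dcstamp, the length of another of its isoforms was used. A transcript of 2000 bp at 0.5 FPKM rests on about 43.0 and 49.6 fragments. Intervals are exact conditional binomial (ratios) or exact Poisson (levels) at 95%, and cover counting error only. How accurate the fit and the calls are for these libraries was not tested. Listed symbols were matched by name or RefSeq synonym, so that Siglecf is Siglec5, Adgre1 is Emr1 and Acpl2 is Pxylp1, and Dcst2 and Ly6g had no match. Named in each list are up to 4 most expressed genes past 2-fold in each direction, up to 3 most expressed that were not, and 7 genes whatever their value (Tnfsf11, Tnfrsf11a, Tnfrsf11b, Aire, Tyrobp, Atp6v0d1 and Csf1r), beside the 3 genes nearest to Siglec15 and to Hk3. Other pseudocounts, minimums, folds and scalings, sums of isoforms and HIDATA values kept were tried. Some genes of the hexokinase and repressor lists are not reported here, and no counts are given for these lists. Analysis used Python 3.11.15, pandas 2.3.3 and scipy 1.17.1.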

Additional observations from a re-analysis of the deposited data

How the results depend on the processing

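Siglec15 and Hk3 were higher under every alternative run, including HIDATA values kept, which was chosen after seeing the data. The lower members numbered 5 without a minimum (Ocstamp and Dcstamp joined), 1 at a mean of 2 FPKM or more (Acp5) and 5 at 1.5-fold (Ctsk and Nfatc1 joined). Over all genes, the higher numbered 701 with a pseudocount of 1 FPKM, 3065 at 1.5-fold, 100 at 4-fold and 725 with median-ratio scaling, against 1128. The lower numbered 5180 without a minimum, 1804 at a mean of 2 FPKM or more and 1893 at 4-fold, against 3260. Scaling to the same sum added Ocstamp to the lower members (4). Median-ratio scaling made Sort1, Atp6v0a4, Tspan7, Siglece and Cldn4 lower as well, and moved the median log2 ratio of all genes from 0.05 to -0.11. Of 45 log2 ratios of members under other pseudocounts, scalings or isoform sums, none changed sign. Of these, 15 were counted as moved, by more than the counting error of the gene or from a listed 0. They include Dcstamp with isoforms summed, which stayed at -2.53, so the count does not measure how far ratios moved. With a pseudocount of 1 FPKM, Calcr stood at -1.60 and Atp6v0d2 at -1.26. No paired analysis was possible because each genotype has 1 library. Depth limits Calcr and Atp6v0d2 in the library labelled Aire-KO, at about 20 and 8 fragments.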
